A study of Mus musculus with 4 samples.

Results

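This account describes the listed Gata6 binding sites around Egfr, the gene of the epidermal growth factor receptor, in primary mouse keratinocytes. The members are the peaks of a deposited overlap list whose midpoint lies on chromosome 11 between 16.5 and 17.0 Mb of build mm9, and there were 12 of them, against 947 other peaks on chromosome 11 and 12125 other peaks in the whole list. Of the 12, 8 lay inside the extent stated for Egfr, about 16.65 to 16.81 Mb, and 5 of these 8 formed a close group in which each peak was within 5 kb of the next. The members were chosen by the measured positions of the peaks, and the region because this group had been seen in the list, so its number of peaks, positions and spacing are given as descriptions and no test is attached to them.

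The study made 4 ChIP-seq libraries: 2 Gata6 libraries from different Gata6 antibodies, 1 library with a Flag antibody as negative control, and 1 input library. The cells came from dorsal skin of mice on a mixed C57BL6/CBA background, carried the K14deltaNLef1 transgene, and had been infected with a lentivirus to overexpress Gata6. The transgene and the overexpression were common to the Gata6, Flag and input libraries, so the sites were mapped under overexpression, with no set from cells that have only their own Gata6. The keratin 14 promoter named in the transgene is active in basal epidermal cells, and the product is Lef1, a partner of beta-catenin, without its N-terminus. The genotype label of the Gata6 library with the first antibody carries 1 more letter N at its end than the others and was read as the same genotype. The shared protocol text speaks of truncated Lef1 complexes as the precipitated material, and the titles and antibody labels, which name Gata6 and Flag, were followed here. Cells were kept on irradiated mouse 3T3-J2 fibroblast feeders in medium that contained epidermal growth factor, the ligand of the receptor, at 10 ng/ml.

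Egfr is a receptor tyrosine kinase of the ErbB family. It binds epidermal growth factor, transforming growth factor alpha, amphiregulin and related ligands, forms dimers with itself or with other ErbB receptors, and signals through the Ras-MAPK and PI3K-Akt pathways. In skin it is found mainly in basal keratinocytes and the outer root sheath of hair follicles, where it promotes proliferation and survival, and mice with reduced Egfr activity have wavy hair. Gata6 is a zinc-finger transcription factor of the GATA family, which recognises a short core of the letters GATA. In the RefSeq gene table of assembly GRCm38, used here for names and order only, Egfr is followed along the chromosome by the lncRNA gene Eldr and then the protein-coding gene Fbxo48, and the protein-coding gene before it is Sec61g, which encodes a subunit of the protein translocation channel of the endoplasmic reticulum. That table also places 2 lncRNA genes, Gm39584 and Egfros, inside Egfr. Which of the listed peaks fall in exons, introns or these lncRNA genes was not analysed here.

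The DNA just before the start of Egfr is shown because the listed peaks lay on either side of the stated start. The nearest midpoints were 10.7 kb before and 40.3 kb after that start, which is rounded to 10 kb. The sequence is the 250 bases before the RefSeq start, on the plus strand of GRCm38.p6 at chr11:16751953-16752202, a position that cannot be set beside the mm9 positions of the peaks. Capitals mark the match to a GC box.
Egfr promoter: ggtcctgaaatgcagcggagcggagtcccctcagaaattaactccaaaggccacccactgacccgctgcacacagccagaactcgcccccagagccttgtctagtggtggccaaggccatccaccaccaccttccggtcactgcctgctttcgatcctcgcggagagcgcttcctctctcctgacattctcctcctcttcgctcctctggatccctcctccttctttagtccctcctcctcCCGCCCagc
In these 250 bases, 60.8% of letters were G or C, against a median of 52.4% over the 32851 RefSeq promoter entries of the same length. The GATA letters AGATAA or AGATAG or TGATAA or TGATAG, searched on both strands, had no match here. That was so for most promoter entries, as 26.5% of them held at least 1. The AP-1 letters TGANTCA had no match either, against 6.75% of entries with one, and neither did TATAAA, against 12.4%. The GC box GGGCGG matched once, on the minus strand, with its first printed base 9 bases before the start, and 32.7% of entries held such a match. These are matches of letters, not measured binding.

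Upstream of the gene lay 4 of the 12 peaks. The most distant, 16553358-16553492, was 96.6 kb before the stated start, was 135 bp wide and carried the name number 1468, the whole number that ends its deposited name. The other 3 stood together within 4.09 kb: 16635323-16635479 (157 bp, number 1068), 16637523-16637661 (139 bp, number 491) and 16639253-16639408 (156 bp, number 729). Their midpoints were 2191 and 1738.5 bp apart, and they lay 14.6, 12.4 and 10.7 kb before the stated start. The stated start and end are rounded to 10 kb, so each such distance can be off by about 5 kb, which changes for none of the 12 peaks whether it lies inside the gene. From the last upstream peak to the first peak inside the gene there were 50.9 kb without a midpoint, and the stated start of Egfr fell in this gap.

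Inside Egfr the first 5 peaks formed the close group, which spanned 10.6 kb. It began with the peaks 16690195-16690319 (125 bp, number 559) and 16691333-16691471 (139 bp, number 1179), 40.3 and 41.4 kb after the stated start. The peaks 16695982-16696107 (126 bp, number 324) and 16696556-16696667 (112 bp, number 970) followed at 46.0 and 46.6 kb, and the last, 16700678-16700830 (153 bp, number 560), at 50.8 kb. Their midpoints were 1145, 4642.5, 567 and 4142.5 bp apart, so the group consisted of a close pair, a second close pair and a single peak. Within the second pair, 448 bases without a listed peak lay between the edges, and only 10 of the 958 distances between neighbouring midpoints on chromosome 11 were smaller than 567 bp. The lowest name number of the group, 324, and the second highest, 970, belonged to these 2 neighbours.

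**Figure D1:**
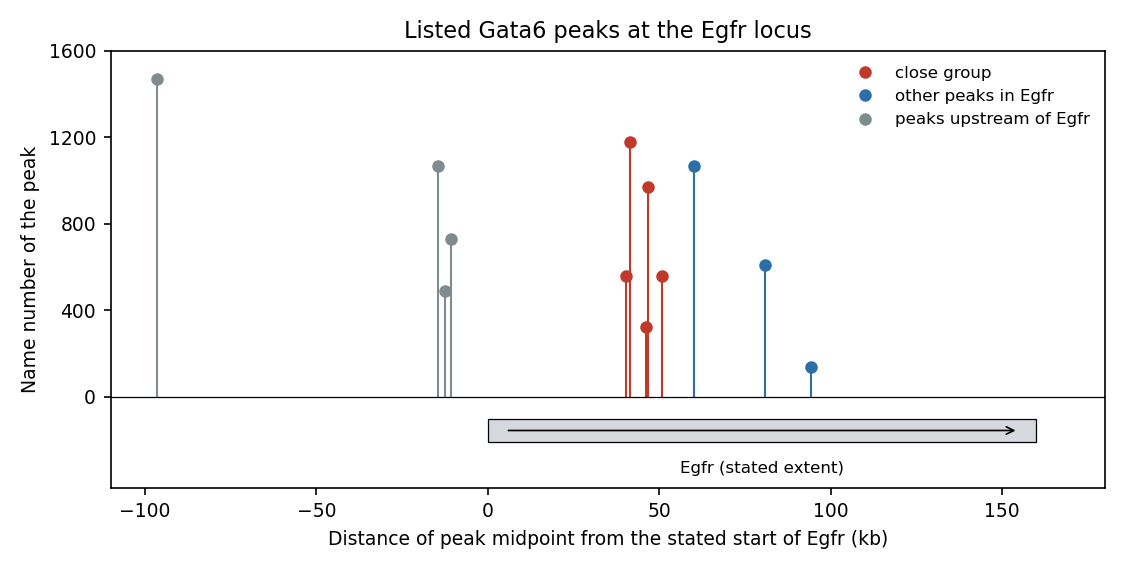
Positions of the 12 listed peaks of the Egfr window, as the distance of each midpoint from the stated start of Egfr in kb, with the name number of each peak on the vertical axis. The grey bar is the stated extent of the gene and its arrow gives the direction of transcription. The upstream trio, the close group 40.3 to 50.8 kb into the gene and 3 more widely spaced peaks up to 94.4 kb can be told apart, and the last 65.6 kb of the gene hold none.

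Further along the gene the peaks thinned out. Peak 16710235-16710373 (139 bp, number 1069) stood 9.55 kb after the close group, 16730691-16730809 (119 bp, number 611) another 20.4 kb on, and 16744319-16744452 (134 bp, number 140) another 13.6 kb on. The 8 peaks in Egfr thus lay between 25.2% and 59.0% of its stated length, and the last 65.6 kb held none. At 8 peaks over the stated 160 kb, their density was 6.18 times that of chromosome 11, which held 8.09 peaks per Mb of its span.

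The peaks of the locus stood apart from the rest of the chromosome. The peak just inside the window on the left, 16553358-16553492, was 127 kb from the peak just outside it, 16426583-16426717 (135 bp, number 969). Before that outer peak there was no midpoint for 4.08 Mb, and only 1 distance on chromosome 11 was longer. On the right, the peak just inside the window, 16744319-16744452, was followed by 2.02 Mb without a midpoint up to the peak just outside, 18764867-18765023 (157 bp, number 87). Longer distances than this numbered 6 among the 958 of the chromosome, whose median was 38.2 kb. Between the 2 empty stretches lay 13 peaks, 12 of them in the window, over 318 kb of a 6.41-Mb stretch. Empty stretches can be sequence without Gata6 peaks, or sequence that is unassembled or to which reads cannot be mapped, and these were not told apart.

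Measured from the first peak of the upstream trio to the last peak in Egfr, 11 consecutive peaks covered 109 kb. Of the 949 overlapping runs of 11 consecutive peaks on chromosome 11 none was shorter, the median was 802 kb, and the shortest that shared no peak with this one covered 150.4 kb. In the whole list 8 of 11937 such runs were shorter, in 6 regions on chromosomes 2, 6, 10, 13 and 19. The shortest, 61.1 kb, lay on chromosome 6 between 135243606 and 135337933, where 2 of these runs overlap over 12 peaks. The length of 11 peaks was taken from the Egfr peaks themselves, so this order describes the list and is no test.

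On a fixed grid the locus stood lower in the order. The window from 16500001 to 17000000 held 12 peaks, against a median of 3 over the 236 complete 500-kb windows of chromosome 11, of which 63 held none. Fewer peaks were found in 222 windows (94.1%), the same number in 3 others and more in 10. A 95% Wilson interval of 90.3 to 96.4 would treat the windows as independent draws. They are all the complete windows of the chromosome, so it serves only as the range against which alternatives are set below. The fullest window, from 59000001 to 59500000, held 19 peaks, and those from 98500001 to 99000000 and from 112500001 to 113000000 held 17 each. The other 7 fuller windows held 13 to 15. The 12 peaks extended over 191 kb of the window, which was among the fuller ones but not the fullest.

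**Figure D2:**
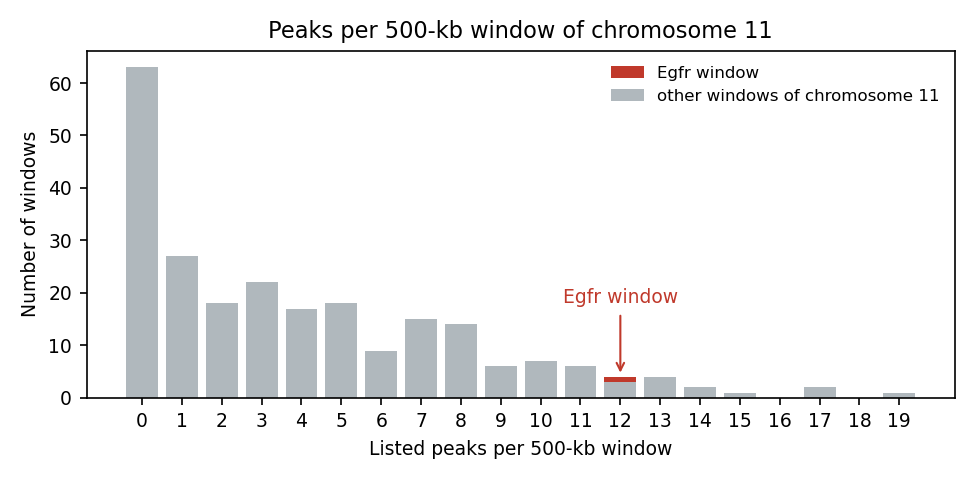
Number of listed peaks (horizontal axis) in each complete 500-kb window of chromosome 11, with the number of windows on the vertical axis. The Egfr window, in red, held 12 peaks and stands on top of the 3 other windows with 12, and 10 windows lie to its right, up to 19 peaks.

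The list holds 2 other groups of 5 peaks, on chromosomes 2 and 7, and these are the regions most like the Egfr group by the number of peaks. Without the limit of 5 kb between neighbours, 3 of the 12057 overlapping runs of 5 consecutive peaks in the whole list were shorter than the Egfr group. Its first and last midpoints were 10.5 kb apart. On chromosome 11, 0 of 955 such runs were shorter. The Egfr group spanned 10.6 kb from first start to last end, against 9.36 kb for 167656753-167666115 on chromosome 2 and 9.20 kb for 119279052-119288251 on chromosome 7. The median distance between neighbouring midpoints was 2644 bp in the Egfr group, 1827 bp on chromosome 2 and 2665 bp on chromosome 7. The Egfr group was the longest of the 3, while its smallest distance, 567 bp, was close to the 574 bp of the chromosome 7 group and below the 1089.5 bp of the chromosome 2 group. On chromosome 11 the next largest groups were 2 groups of 4 and 12 groups of 3 peaks, and the upstream trio of Egfr was one of these 12.

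**Figure D3:**
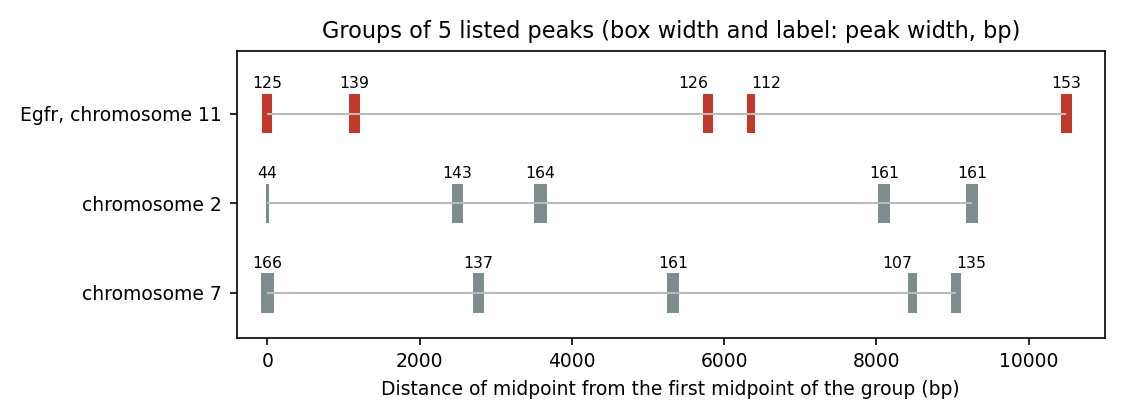
The 3 groups of 5 listed peaks drawn to scale, with the distance from the first midpoint of each group in bp on the horizontal axis. Each box is a peak and the number above it is its width in bp. In the Egfr group widths run from 112 to 153 bp, against 44 to 164 bp on chromosome 2 and 107 to 166 bp on chromosome 7.

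Widths at the locus lay around the middle of those on the chromosome. A width here is that of an interval in the overlap list and not that of a whole binding site. The 12 peaks were 112 to 157 bp wide with a median of 137 bp (95% binomial order-statistic interval 125 to 153), against 4 to 166 bp and a median of 143 bp for the other 947 peaks of chromosome 11. Such an interval, here and for the name numbers below, treats the 12 peaks as independent draws. They are all the listed peaks of a chosen region and several stand in groups, so it is no test. Of the 12, 9 were narrower than 143 bp and 3 were wider. The 4 upstream peaks had a median of 147.5 bp and the 8 peaks in the gene one of 130 bp, and in the gene only 16700678-16700830, at 153 bp, was wider than the chromosome's median. None of the 12 was 83 bp or narrower, a class that held 9.93% of the other peaks of the chromosome. With only 12 peaks, a count of 0 does not show a lower share.

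Name numbers at the locus lay around the middle of the listed numbers of the chromosome. The sources used here do not say what these numbers count. The listed numbers of chromosome 11 run to 3020, and 31.8% of the numbers up to 3020 are listed. Whether numbers that are not listed run higher is unknown. The 12 numbers lay between 140 and 1468, and their median percentile among the listed peaks of chromosome 11 was 50.9 (95% binomial order-statistic interval 40.6 to 71.7), with 6 in the lower part of the chromosome's listed numbers and 6 in the upper part, divided at the 50th percentile. As a percent of the highest listed number, 3020, the median was 22.2%, and among the listed peaks of all chromosomes it was at percentile 68.2. These 2 values are not particular to the locus. The median number was 670 for the 12 peaks and 647 for the other peaks of chromosome 11, against 409 in the whole list. Within the close group the percentiles were 44.5, 75.8, 28.8, 66.9 and 44.6 in order of position, with a median of 44.6. The median percentile was 31.4 in the group on chromosome 2 and 50.6 in that on chromosome 7, each among the peaks of its own chromosome. The lowest number at the locus, 140, was outside the close group. It belonged to 16744319-16744452, the last peak in Egfr, at percentile 13.5, and it was the only one of the 12 in the lowest 25% of the chromosome's listed numbers.

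**Figure D4:**
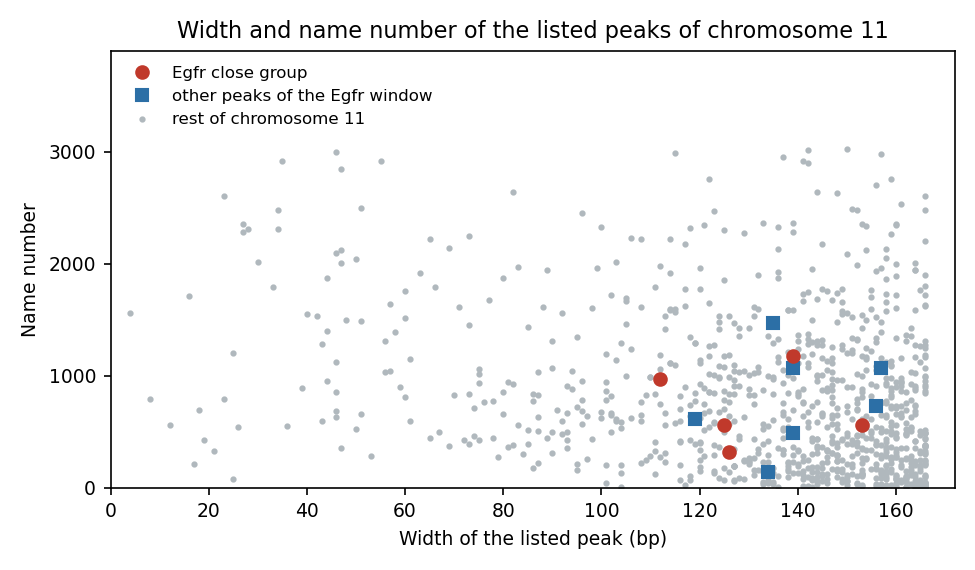
Width in bp (horizontal axis) and name number (vertical axis) of each of the 959 listed peaks of chromosome 11. The close group (red circles) and the other 7 peaks of the Egfr window (blue squares) lie between 112 and 157 bp and between numbers 140 and 1468, inside the range of the other peaks (grey).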

How the data were processed

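Chromatin immunoprecipitation libraries were sequenced from keratinocytes on the Genome Analyzer, per the labels' protocols. BWA, HOMER and build mm9 are named, without versions or roles, per the submitters' processing notes. How the peaks were called and intersected, and how the Flag and input libraries were used, is not stated in the sources used here. The deposited list holds 1 row per peak and no values per library, and depth per library is unknown. The deposited score column holds 0 throughout and the strand column a plus sign throughout, so neither carries information.

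Positions are 1-based mm9. Distances are between midpoints. The stated extent of Egfr is the rounded one that came with the definition of the region. Peaks were named by position. Beyond them, the other groups of 5 peaks and the chromosome 11 windows with 12 or more peaks were named, the latter in part as a range. The members, lists and measures were chosen with earlier results of these data known. Python 3.11.15, NumPy 2.4.6, pandas 2.3.3, SciPy 1.17.1 and matplotlib 3.10.9 were used, and the grouping and window counts were tested on simulated peaks. Motifs under the peaks, exons and introns, and peaks at ErbB ligands, receptors and feedback genes were not analysed here, because no genome or annotation of mm9 was used. Promoter sequences are from RefSeq.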

Additional observations from a re-analysis of the deposited data

How the results depend on the processing

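Of 16 alternatives, 13 kept a count within 1.5 times or a value within its interval, which for the spacing of the close group was the range of its 4 distances. Some of the 13 were fixed in advance. No Egfr peak was 83 bp or narrower, so leaving out such peaks could not change the 12 peaks, the close group or the median width. The count of 8 peaks in the stated extent, against 12, was kept only at the limit of 1.5 times. The median spacing was 2644 bp, but 4143 bp with neighbours linked within 10 kb. This is inside that range, which the median could not leave with only 1 distance added. The close group had 5 peaks, but with neighbours linked within 3 kb its 2 distances over 4 kb divide it and the largest group at the locus is the upstream trio, with 3, while linking within 10 kb gives 6. The median name number of the 12 peaks was at percentile 50.9 among the listed peaks of chromosome 11. It was at 22.2% of the highest listed number, with 31.8% of the numbers up to that one listed. That median number was 670, against 647 for the other peaks of chromosome 11. The share of windows with fewer peaks was 94.1%, but 74.4% with windows of 1 Mb, where the locus gains only 1 peak. No paired analysis was possible because the list holds no values per replicate, and for the same reason no library could be left out. The alternative on GATA motifs under the peaks was not run without an mm9 genome. How deep each library was sequenced bears on which peaks could be listed, and this was not measured.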

Other observations

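On chromosome 11 the list holds 557 pairs of peaks with consecutive name numbers, and in 518 of them (93.0%) the higher number lay further along the chromosome, at a median distance of 2.01 Mb. Among the Egfr peaks there were 2 such pairs. Numbers 559 and 560 were the first and last peaks of the close group, 10.5 kb apart, and only 5 ascending pairs of the chromosome were closer. Numbers 1068 and 1069 were the first peak of the upstream trio and the peak after the close group, 74.9 kb apart. A further pair, 969 and 970, joined the peak just outside the window to the fourth peak of the close group, 270 kb apart. In the other 6 pairs with 1 Egfr peak, the higher number lay 2.22 to 4.83 Mb further along in 5, and in the pair 139 and 140 it lay 105 Mb further back. The sources used here do not say what order the numbers follow.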
